A study of Mus musculus with 4 samples.

Results

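Oxidative phosphorylation subunits were followed across the cell types of mouse bone under hindlimb unloading. The members were taken by symbol from the 31053 rows of the deposited gene table. Nuclear members were the 93 rows whose symbol begins with Nduf, Uqcr, Cox4 to Cox8 or Atp5, or is Sdha, Sdhb, Sdhc or Sdhd, and mitochondrial members were the 13 rows of subunits encoded by the mitochondrial genome (mt-Nd, mt-Co, mt-Cytb and mt-Atp symbols). The symbol alone decided membership. The 106 rows were counted in 4 single-cell libraries from wild-type mice, 1 mouse each. The Ctrl group (2 libraries) had no treatment, and the HLU group (2 libraries) was suspended by the tail so that the hindlimbs bore no load, both for 28 days. Tibiae and femurs were flushed to remove marrow cells and the remaining tissue was digested into single cells. The sources used here give the age of the mice differently, so it is not stated.

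Oxidative phosphorylation is the process by which mitochondria turn the energy of electrons from nutrients into ATP. Complex I (NADH dehydrogenase) and complex II (succinate dehydrogenase) take up electrons, complex III (cytochrome bc1) and complex IV (cytochrome c oxidase) pass them on to oxygen, and complexes I, III and IV pump protons across the inner membrane. Complex V (ATP synthase) uses the returning protons to make ATP. The mitochondrial genome encodes a few central subunits of complexes I, III, IV and V, while the nucleus encodes the rest and all of complex II. Mature neutrophils are known for few mitochondria and for reliance on glycolysis, whereas bone-resorbing osteoclasts are rich in mitochondria. Some subunits exist as paralogues with restricted expression, such as the second forms of Cox4, Cox6a and Cox6b, and Ndufa4l2, a relative of the complex IV subunit Ndufa4 known as a hypoxia-responsive gene.

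Of the nuclear members, 7 were core subunits of complex I, 29 its accessory subunits, 8 its assembly factors (the Ndufaf genes), 4 subunits of complex II, 8 of complex III, 20 of complex IV (Ndufa4 and Ndufa4l2 included) and 17 of complex V. The mitochondrial members were 7 subunits of complex I, mt-Cytb of complex III, 3 of complex IV and 2 of complex V. The nuclear rows lay on 19 chromosomes. A second row named Atp5o had no unique molecular identifier (UMI, the tag that marks 1 captured RNA molecule) in any kept cell, and 4 nuclear rows, that one included, had under 100 UMIs in all. mt-Nd4l overlaps mt-Nd4 and mt-Atp8 overlaps mt-Atp6 in the genome, so reads of these pairs could be shared.

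The 4 libraries held 47819046 to 99849070 UMIs in 10000 to 10003 barcodes. Barcodes with 1000 to 40000 UMIs and at most 10% mitochondrial UMIs were kept, which left 7340 and 7635 Ctrl cells and 7757 and 9485 HLU cells, and pairs of libraries shared 23 to 36 barcodes. Cells were named by fixed marker genes, so that a name means resemblance to a type, and 46.0% to 63.0% of the kept cells of a library received one. HLU replicate 2 stood apart from the other libraries with 267 barcodes under 1000 UMIs against 2143 to 2585. The labelled tissue is bone, yet most named cells were neutrophils and other blood cells, and 1224 and 1143 chondrocytes in Ctrl stood against 45 and 98 in HLU. Chondrocytes, osteoblasts and mesenchymal stromal cells were joined as skeletal cells (1627 and 1451 in Ctrl, 70 and 128 in HLU).

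Respiratory genes are known to share short promoter motifs. Upstream stretches of 4 members are printed because Ndufaf4 and Cox6b2 had the largest fitted nuclear falls of the 2 neutrophil steps described here, and Cox6b1 and Cox6a1 are the common forms of paralogue pairs with a restricted partner. Windows from 250 bases before to 50 bases after the start of a gene were taken from RefSeq (GRCm38.p6), and 79 windows were found for 74 of the members. The motif of the transcription factor NRF1, known as a regulator of respiratory genes, searched as GCGCA, any base and GCGC, was present on either strand in 20 of 79 member windows (25.3%) against 4.60% of all 32851 windows. CCGGAAG, a core of sites for ETS factors, was in 22.8% against 8.86% and ACGTG, a core of hypoxia response elements, in 22.8% against 19.6%. The stretches printed lie upstream of the first exon, read 5′ to 3′ on the strand of the gene, with matches to the NRF1 motif in capitals. They are Ndufaf4 at chr4:24897883-24898082 (plus strand), a complex I assembly factor, Cox6a1 at chr5:115348982-115349129 (minus strand), the common form of complex IV subunit VIa, and the paralogues Cox6b1 at chr7:30626152-30626351 and Cox6b2 at chr7:4753095-4753225 (both minus strand), the common and the restricted form of subunit VIb.
Ndufaf4: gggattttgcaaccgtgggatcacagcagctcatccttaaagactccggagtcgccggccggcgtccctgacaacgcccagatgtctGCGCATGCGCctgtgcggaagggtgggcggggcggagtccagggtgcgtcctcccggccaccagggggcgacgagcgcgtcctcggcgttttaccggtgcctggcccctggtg
Cox6a1: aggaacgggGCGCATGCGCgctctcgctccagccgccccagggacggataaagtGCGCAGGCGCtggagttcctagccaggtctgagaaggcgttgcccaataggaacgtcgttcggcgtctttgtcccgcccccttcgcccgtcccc
Cox6b1: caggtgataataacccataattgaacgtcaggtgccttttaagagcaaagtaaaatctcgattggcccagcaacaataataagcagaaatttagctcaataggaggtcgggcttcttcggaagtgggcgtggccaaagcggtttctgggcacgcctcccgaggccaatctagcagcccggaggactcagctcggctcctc
Cox6b2: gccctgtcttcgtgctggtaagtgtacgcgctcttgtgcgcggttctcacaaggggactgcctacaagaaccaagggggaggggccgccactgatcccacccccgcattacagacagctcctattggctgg
The Ndufaf4 stretch held 1 match and the Cox6a1 stretch 2, while no match was in the Cox6b1 and Cox6b2 stretches. A match is a description of the letters and not a measured site.

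Levels are given as CPM, the UMIs of a gene relative to the UMIs of all genes in the cells of 1 type in 1 library, where 10000 CPM are 1% of UMIs, and shares are percentages of the same total. Where 4 values are listed, those of the Ctrl libraries come first and those of the HLU libraries after them, each pair in the order of its replicate numbers. Log2 fold changes come from the edgeR quasi-likelihood test on summed UMIs, scaled by trimmed means (TMM), with p-values adjusted over all genes tested and a threshold of 0.05. The SE printed after a fold change was worked back from that change and the F statistic of the test. It can be far too narrow where a sum holds few UMIs, as for Ndufa4l2 in HLU blood cells. The 3′ UMI counts do not measure one gene against another on a common scale, so genes are compared with themselves across cells.

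The nuclear members took 2.52%, 2.56%, 2.35% and 2.40% of UMIs in neutrophil progenitors, 1.5%, 1.34%, 1.40% and 1.33% in immature neutrophils and 0.843%, 0.695%, 0.813% and 0.809% in mature neutrophils. The share thus stepped down along the neutrophil series in every library, and no library of 1 stage overlapped another stage. Monocytes held 1.99%, 1.97%, 1.88% and 2.26%, B cells 2.18%, 2.05%, 2.12% and 2.27%, T cells 1.74%, 1.41%, 1.58% and 1.46%, and skeletal cells 1.30%, 1.26%, 1.43% and 1.43%. Monocytes and B cells overlapped with each other, and T cells, immature neutrophils and skeletal cells overlapped with one another. A second total left out mitochondrial, ribosomal protein and neutrophil granule transcripts. Of that total the nuclear members took 2.69%, 2.42%, 2.52% and 2.36% in immature neutrophils. They took 2.58%, 2.49%, 2.36% and 2.70% in monocytes and 1.61%, 1.54%, 1.81% and 1.75% in skeletal cells. Immature neutrophils then overlapped with monocytes and lay above skeletal cells.

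The mitochondrial members had a partly different order. Their share is taken after barcodes over 10% mitochondrial UMIs were removed, which numbered 69, 136, 85 and 21. The part of this limit in the order of types was not tested. They took 4.55%, 5.03%, 4.92% and 2.72% of UMIs in B cells, 4.11%, 4.04%, 4.29% and 2.14% in neutrophil progenitors and 3.63%, 3.73%, 3.65% and 2.87% in T cells. Within each of the 4 libraries, B cells were above progenitors and mature neutrophils were lowest of the 7 types, with 0.652%, 0.699%, 0.577% and 0.339%. Immature neutrophils held 1.53%, 1.42%, 1.51% and 0.910%, monocytes 2.88%, 3.0%, 3.13% and 2.03%, and skeletal cells 2.62%, 3.07%, 3.04% and 1.64%. The share of HLU replicate 2 was the lowest of the 4 libraries in each of these types. Mitochondrial UMIs per nuclear-member UMI were 2.01, 2.44, 2.12 and 1.14 in skeletal cells, 1.45, 1.52, 1.66 and 0.901 in monocytes and 0.774, 1.01, 0.711 and 0.419 in mature neutrophils. Compared with monocytes, skeletal cells held a smaller nuclear share beside a mitochondrial share close to theirs. The order of B cells and progenitors depended on the total. Relative to the second total, mitochondrial members were at 7.38%, 6.89%, 7.27% and 3.12% in progenitors and 6.73%, 7.42%, 6.96% and 3.71% in B cells. B cells were then higher in Ctrl replicate 2 and HLU replicate 2 only.

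**Figure D1:**
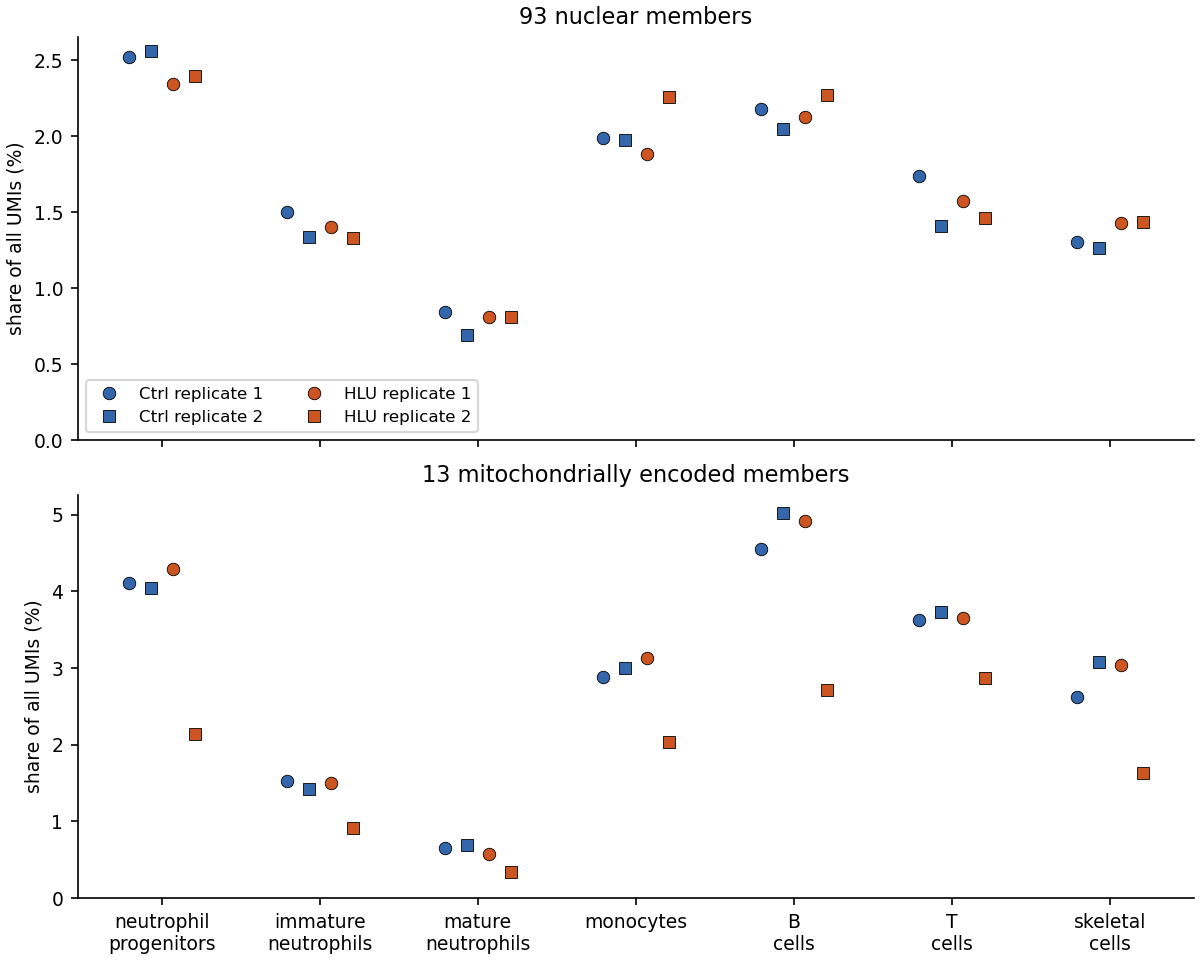
Share of all UMIs (percent, y axis) taken by the 93 nuclear members (top) and the 13 mitochondrially encoded members (bottom) in 7 cell types (x axis), 1 point a library (blue Ctrl, orange HLU, circles replicate 1, squares replicate 2). Both shares step down from neutrophil progenitors to mature neutrophils, and HLU replicate 2 is lowest in every type of the bottom panel.

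Subunits fell together as progenitors gave way to immature neutrophils. Of 89 nuclear members tested, 56 fell and 2 rose, with a median log2 fold change of -0.47 where the median of all genes tested was 0.04, and all 13 mitochondrial members fell, with a median of -1.37. Among all genes in this comparison 59.6% were called by the same test, as 28.4% fell and 31.2% rose. Each step is fitted within libraries, so each library is set against itself. The sharpest nuclear falls were in assembly factors of complex I, of which 7 of 8 fell (median -1.42). Ndufaf4 held 12.8, 19.2, 14.7 and 59.4 CPM in progenitors and 3.14, 2.95, 1.73 and 4.54 CPM in immature neutrophils, a log2 fold change of -2.58 ± 0.22 (SE, edgeR adjusted p = 1.17e-05). Ndufaf6 changed by -2.06 ± 0.25 (edgeR adjusted p = 7.47e-05) and Ndufaf5 by -1.95 ± 0.38 (edgeR adjusted p = 0.00141). Atp5g1, 1 of 3 genes for the membrane ring of ATP synthase, held 239.6, 339.7, 207 and 588 CPM in progenitors against 56.6, 58.8, 41.4 and 108 CPM (-1.94 ± 0.13, edgeR adjusted p = 3.95e-06). The levels of Atp5g1 and Ndufaf4 in HLU replicate 2 were the highest of the 4 libraries at both stages.

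By complex, 5 of 7 core and 16 of 29 accessory subunits of complex I fell at this step, as did 7 of 8 of complex III, 9 of 17 tested of complex IV and 11 of 16 of complex V, but 1 of 4 of complex II. Ndufs1, the largest core subunit of complex I, held 28.4, 25.6, 29.6 and 48.7 CPM in progenitors and 21.8, 20.4, 24.6 and 26.0 CPM in immature neutrophils, and its change of -0.06 did not pass the test (edgeR adjusted p = 0.717). Sdhb, the iron-sulfur subunit of complex II, also did not pass (0.05, edgeR adjusted p = 0.793). Uqcrc1 (-0.66, edgeR adjusted p = 0.00129), Cox5a (-0.61, edgeR adjusted p = 0.00432) and Atp5b (-0.47, edgeR adjusted p = 0.00955), central subunits of complexes III, IV and V, fell. The CPM of many members fell further than the fitted change, as for Cox4i1, with 647, 679, 627 and 793 CPM in progenitors and 503, 440.1, 515 and 607 CPM in immature neutrophils and a fitted change of -0.01 (edgeR adjusted p = 0.972). Scaling by total UMIs in place of TMM shifted the median of all genes to -0.39, with 83 nuclear members called lower and 1 higher. The share of all genes called under that scaling is not given, so these counts are not read against a background. The 6 granule and calprotectin transcripts (S100a8, S100a9, Ngp, Camp, Ltf and Retnlg) took 31.8% to 34.3% of UMIs in immature neutrophils against 5.67% to 8.62% in progenitors, and their part in the fitted values was not tested.

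The mitochondrial members did not fall by the same amount. mt-Nd3, a small membrane subunit of complex I, held 405, 543, 442 and 244 CPM in progenitors and 70.2, 71.8, 69.0 and 68.4 CPM in immature neutrophils, a change of -2.08. mt-Nd2 changed by -1.84 and mt-Cytb by -1.81. mt-Co1, the catalytic subunit of complex IV, changed least, from 9789, 7544, 12581 and 3516 CPM to 4863, 4255, 6227 and 1900.1 CPM (-0.53 ± 0.17, edgeR adjusted p = 0.0211), and its call was lost without Ctrl replicate 1 (-0.46) or HLU replicate 1 (-0.49). The range of the 13 members was -2.08 to -0.53.

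From immature to mature neutrophils 72 of 86 nuclear members tested fell, 2 rose, and all 13 mitochondrial members fell, with medians of -1.07 and -1.09 against -0.05 over all genes. Among all genes 64.2% were called, as 33.6% fell and 30.6% rose. In this step 26 of 29 accessory and 6 of 7 core subunits of complex I fell, with 2 of 4 of complex II, 7 of 8 of complex III, 11 of 15 of complex IV and 15 of 16 of complex V. Ndufa5, an accessory subunit of complex I, held 147, 153, 148 and 151 CPM in progenitors, 57.2, 48.4, 49.4 and 52.4 CPM in immature and 9.96, 6.80, 5.08 and 7.98 CPM in mature neutrophils. The 4 libraries stayed close to each other at each stage, and the second step measured -2.76 ± 0.18 (edgeR adjusted p = 6.32e-07). Ndufc2 (-2.45 ± 0.18, edgeR adjusted p = 1.19e-06) and Ndufb5 (-2.42 ± 0.20, edgeR adjusted p = 3.17e-06), accessory subunits of complex I, and Atp5g2 (-2.32 ± 0.14, edgeR adjusted p = 3.7e-07) of ATP synthase fell nearly as far. Median UMIs per cell were 2143.5 to 3882.5 in mature neutrophils against 7386 to 9675 in immature ones, and the part of depth in these changes was not tested.

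Of 86 nuclear members tested at both steps, 52 fell at both, 20 at the second alone, 2 at the first alone and 12 at neither by this threshold. The fall was larger at the second step for 70 of the 86 nuclear members and for 6 of the 13 mitochondrial ones, as values without a test of the difference. Over all genes 28.4% fell at the first step and 33.6% at the second. Neither the overlap of the steps nor the larger fall was counted over all genes, so these counts stand without a background. The 12 that fell at neither were Atp5l, Cox4i2, Cox7a2l, Cox8a, Ndufa3, Ndufa4l2, Ndufa7, Ndufaf7, Ndufb9, Ndufs1, Sdha and Sdhd. Sdha and Sdhd belong to complex II, the entry point that is also an enzyme of the tricarboxylic acid cycle. Ndufs1 held 27.8, 21.6, 26.0 and 19.3 CPM in mature neutrophils, close to its level in immature ones (0.05, edgeR adjusted p = 0.770).

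Ndufaf7, a methyltransferase that acts in complex I assembly, went the other way at both steps. It held 20.6, 13.2, 20.3 and 16.4 CPM in progenitors, 37.4, 29.0, 28.1 and 17.2 CPM in immature and 51.2, 36.4, 34.9 and 31.6 CPM in mature neutrophils, so it was higher at each later stage in each library. The first step measured 1.01 ± 0.16 (edgeR adjusted p = 0.000393) and the second 0.56 ± 0.17 (edgeR adjusted p = 0.0157), where the second call was lost with a minimum of 10 UMIs in every sum (0.30), with cells of at least 2000 UMIs (0.44) and without the library term (0.50). Sdhd, a membrane anchor of complex II, rose at the second step by 0.38 ± 0.12 (edgeR adjusted p = 0.0165) from 115, 104, 102 and 34.9 CPM to 157, 147, 131 and 35.8 CPM. Its level in HLU replicate 2 was far below the other libraries at both stages, and its call was lost when Ctrl replicate 1 (0.39), Ctrl replicate 2 (0.38) or HLU replicate 1 (0.42) was left out. Ndufb7, an accessory subunit of complex I, rose at the first step by 0.46 ± 0.13 (edgeR adjusted p = 0.0117), a call lost without HLU replicate 1 (0.40).

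**Figure D2:**
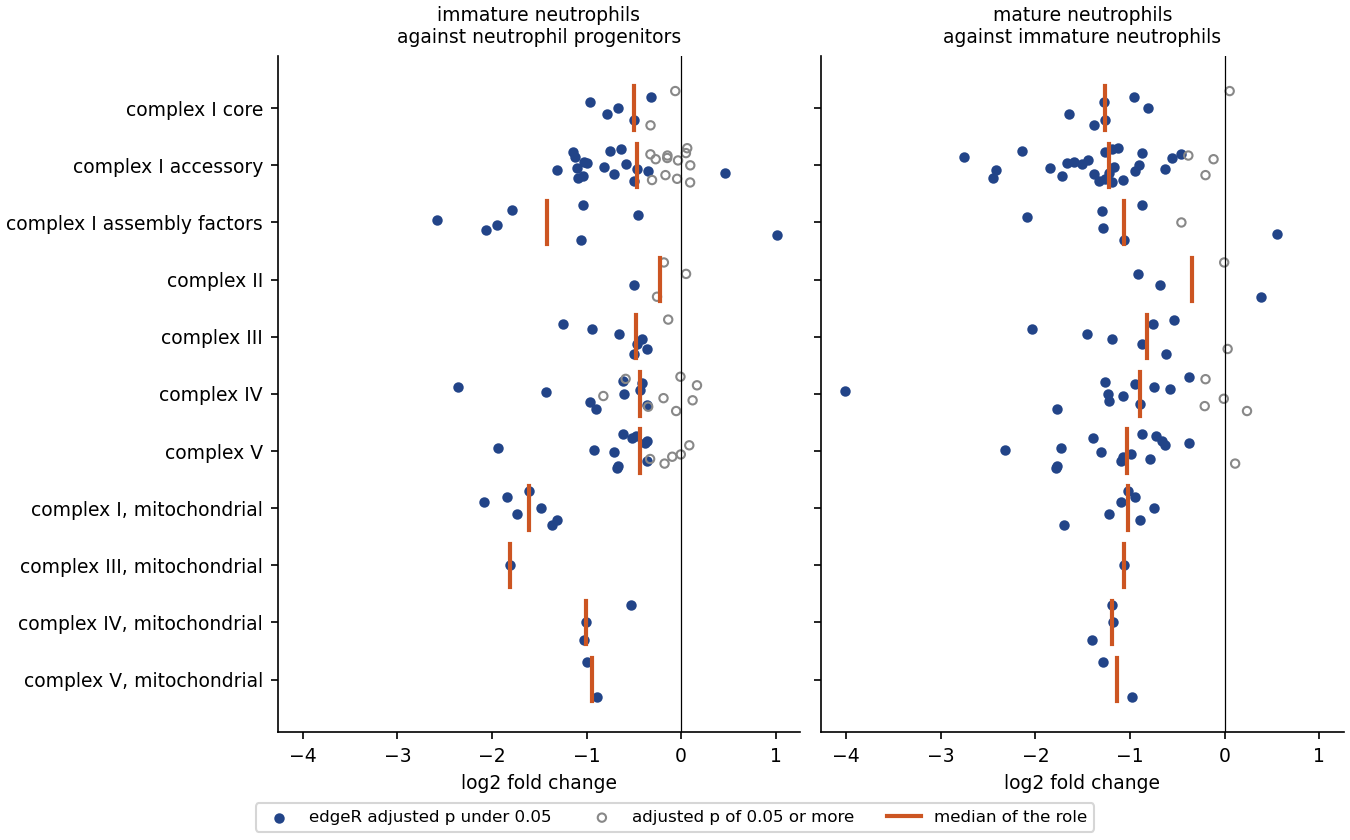
Log2 fold change (x axis) of each member tested by complex and role (y axis) from neutrophil progenitors to immature neutrophils (left) and from immature to mature neutrophils (right), filled where the edgeR adjusted p was under 0.05 and open otherwise, with the median of each role as a bar. Most points lie below 0 in both panels, complex II lies nearest to 0, and Ndufaf7 is the filled point to the right of 0 among the assembly factors in both.

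Other mitochondrial genes were counted beside the members from fixed lists. Among all genes tested 28.4% fell and 31.2% rose at the first step, and 33.6% fell and 30.6% rose at the second. At the first step 63 of 77 mitochondrial ribosomal protein genes tested fell and 2 rose, and 67 of 75 fell and 1 rose at the second. Of the tricarboxylic acid cycle and pyruvate dehydrogenase genes 11 of 17 fell and 1 rose at the first step, and 13 of 16 fell at the second. Of 33 assembly genes outside the symbol rule 17 fell and 1 rose at the first step, and 14 of 30 fell and 3 rose at the second. Genes of mitochondrial biogenesis were split at the first step, where 7 of 13 fell and 5 rose, and the 5 that rose were Nrf1, Polg, Esrra, Gabpb1 and Gabpa. Nrf1, Gabpa and Gabpb1 encode subunits of transcription factors known to act on respiratory genes, while the genes that fell included Lrpprc and Slirp, which stabilise mitochondrial RNA, and Polrmt, the mitochondrial RNA polymerase. At the second step 5 of 12 biogenesis genes fell and 2 rose, Nrf1 and Esrra. Of 9 carriers of the inner and outer membranes 4 fell and 2 rose at the first step, and 5 fell at the second.

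Monocytes, which come from the same marrow progenitors as neutrophils and can form osteoclasts, were set against mature neutrophils. Of 86 nuclear members tested 63 were higher in monocytes and 3 lower, with a median of 1.03 against 0.08 over all genes, and all 13 mitochondrial members were higher (median 1.62). Among all genes 70.2% were called, 36.3% higher and 33.8% lower. With total UMIs in place of TMM the median of all genes was 0.87, and 81 nuclear members were called higher and 0 lower, without the share of all genes beside them. Atp5g1 held 168, 212, 142 and 525 CPM in monocytes and 17.8, 15.2, 8.57 and 38.3 CPM in mature neutrophils, a change of 2.94 ± 0.19 (edgeR adjusted p = 1.95e-05). Ndufc2 (2.89 ± 0.23, edgeR adjusted p = 4.63e-05) and the assembly factors Ndufaf5 (3.02 ± 0.53, edgeR adjusted p = 0.00155) and Ndufaf4 (2.94 ± 0.50, edgeR adjusted p = 0.00122) had fitted changes of a like size. Of the 8 assembly factors tested here, 5 passed the count filter within mature neutrophils alone. Ndufaf5 and Ndufaf4 held few UMIs in mature neutrophils, so the size of their change is uncertain. mt-Nd1 of complex I held 951, 1177, 969.9 and 1160.2 CPM in monocytes against 153, 158, 109 and 97.4 CPM (2.29, edgeR adjusted p = 3.32e-05). The 3 lower calls were Ndufaf7 (-0.88 ± 0.30, edgeR adjusted p = 0.0291), Sdhd (-0.66 ± 0.22, edgeR adjusted p = 0.0266) and Atp5l (-0.39 ± 0.13, edgeR adjusted p = 0.0294), none of which was called lower with total UMIs, at -0.10, 0.13 and 0.39, and Atp5l was then called higher (edgeR adjusted p = 0.0436).

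B cells held more mitochondrial transcripts than monocytes and a mixed nuclear set. Of 13 mitochondrial members 11 were higher in B cells, with 7 of 7 in complex I, while 18 of 86 nuclear members were lower and 7 higher (median -0.11 against -0.01 over all genes). Among all genes 43.7% were called, 24.7% lower and 19.1% higher, so the nuclear counts were near or below these shares. The nuclear split turned with total UMIs, under which the median of all genes was 0.25 and 15 nuclear members were higher and 4 lower. These counts too stand without the share of all genes. Ndufa12, an accessory subunit of complex I, held 59.2, 73.8, 43.8 and 90.1 CPM in monocytes and 174, 148, 177 and 204 CPM in B cells (1.19 ± 0.18, edgeR adjusted p = 0.00153), with no overlap of the types. Sdhc, a membrane anchor of complex II, was lower in B cells (-0.89 ± 0.19, edgeR adjusted p = 0.00621), as were the accessory subunit Ndufb3 (-0.78 ± 0.14, edgeR adjusted p = 0.00353) and Ndufaf7 (-1.55 ± 0.31, edgeR adjusted p = 0.00490). mt-Nd4l was 1.20 higher (edgeR adjusted p = 0.00100) and mt-Co1 did not pass (-0.28, edgeR adjusted p = 0.0957). The nuclear count of 25 fell to 11 without Ctrl replicate 1, 6 without Ctrl replicate 2 and 7 without HLU replicate 1, and the mitochondrial count to 6 without Ctrl replicate 2.

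Skeletal cells had lower nuclear members than monocytes, with 46 of 88 lower and 4 higher, a median of -0.53 against 0.01 over all genes, where 49.4% of all genes were called, 24.2% lower and 25.2% higher. Of 13 mitochondrial members 5 were higher and 0 lower (edgeR, 0 lower also at an unadjusted p under 0.05). Ndufb8 of complex I held 213, 217, 194 and 339 CPM in monocytes against 80.7, 63.7, 89.5 and 124 CPM in skeletal cells (-1.33 ± 0.16, edgeR adjusted p = 0.000884). Cox5a (-1.0, edgeR adjusted p = 0.00351), Sdhb (-1.13, edgeR adjusted p = 0.00146) and Uqcrc1 (-0.86, edgeR adjusted p = 0.00700) were lower too. The 4 higher members were Ndufa4l2 (5.10 ± 0.71, edgeR adjusted p = 0.00161), Cox4i2 (5.02 ± 0.57, edgeR adjusted p = 0.000787), Ndufaf4 (1.19 ± 0.27, edgeR adjusted p = 0.0118) and Ndufaf2 (0.87 ± 0.21, edgeR adjusted p = 0.0138). The nuclear count of 50 was 24 without Ctrl replicate 1 and 26 without Ctrl replicate 2, and the mitochondrial count was 2 without Ctrl replicate 1, Ctrl replicate 2 or HLU replicate 1.

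The paralogues of complex IV divided by cell type. Cox4i2, the form of subunit IV known from lung and from low oxygen, held 256, 276, 132 and 42.5 CPM in chondrocytes and 34.0, 57.1, 25.6 and 13.6 CPM in mesenchymal stromal cells. Ndufa4l2 held 788, 1082, 95 and 161 CPM in chondrocytes and 367, 1141, 329 and 13.6 CPM in mesenchymal stromal cells. Both were therefore highest in cells of the skeleton, whereas Cox4i1, the common form, held between 304 and 823 CPM in every library of mature neutrophils, monocytes and skeletal cells.

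Cox6a2, the heart and muscle form of subunit VIa, stood out in dendritic cells with 981, 497, 1169 and 324 CPM, from 36, 32, 254 and 5 UMIs in 6, 8, 26 and 3 cells. Outside dendritic cells the highest level among types of 10 or more cells was 20.9 CPM, in B cells of HLU replicate 1. Dendritic cells were too few for the test across genes, so this is a level and not a tested difference. Of their gate markers, Siglech and Ccr9, known from plasmacytoid dendritic cells, held 1224 and 2021 CPM (mean over libraries). Cd209a, Clec9a and Xcr1, known from conventional dendritic cells, held 117, 24.7 and 3.88 CPM, and Flt3 and Klk1 362 and 12.8 CPM. The level of Cox6a2 is therefore not shown for conventional dendritic cells. In monocytes Cox6a2 held 6.49, 11.2, 5.33 and 6.75 CPM, from 8 to 42 UMIs, and was above mature neutrophils by 3.95 ± 0.70 (edgeR adjusted p = 0.00157), where the sums held 0 to 2 UMIs, so that the fitted size rests on 3 UMIs. Its fall from progenitors to immature neutrophils (-2.35 ± 0.67, edgeR adjusted p = 0.0119) was lost without Ctrl replicate 2 (-1.67).

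Cox6b2, the form of subunit VIb known from testis, followed the neutrophil series. It held 31.9, 34.4, 33.7 and 34.6 CPM in progenitors, 6.57, 9.05, 8.74 and 12.3 CPM in immature and 0.712, 0.80, 0.318 and 0.532 CPM in mature neutrophils, the last from 1 to 3 UMIs a library. No stage overlapped another in Cox6b2, and the changes were -1.43 ± 0.21 (edgeR adjusted p = 0.000262) and -4.02 ± 0.36 (edgeR adjusted p = 4.54e-06). The latter was the largest fitted nuclear fall of the second step, but its size is uncertain with so few UMIs in mature neutrophils. Cox6b1, the partner of Cox6b2, changed by -0.43 (edgeR adjusted p = 0.0365) and -0.58 (edgeR adjusted p = 0.00708). Neither printed promoter stretch of this pair held the NRF1 letters. Of the other paralogues, Cox6a1 measured 0.17 (edgeR adjusted p = 0.289) at the first step, where Cox6a2 fell, and -0.75 (edgeR adjusted p = 0.000464) at the second. Cox8a measured -0.35 (edgeR adjusted p = 0.0758) and -0.21 (edgeR adjusted p = 0.208), Cox7a2 -0.19 (edgeR adjusted p = 0.299) and -1.08 (edgeR adjusted p = 6.24e-05), and Cox7a2l 0.12 and -0.01. Cox8b had 7 UMIs in all kept cells and Cox7a1, the muscle form of subunit VIIa, 541. Of the 3 genes for the ring of ATP synthase, Atp5g1 fell by 1.94 then 1.73, Atp5g2 by 0.92 then 2.32 and Atp5g3 by 0.71 then 1.31 on the log2 scale.

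**Figure D3:**
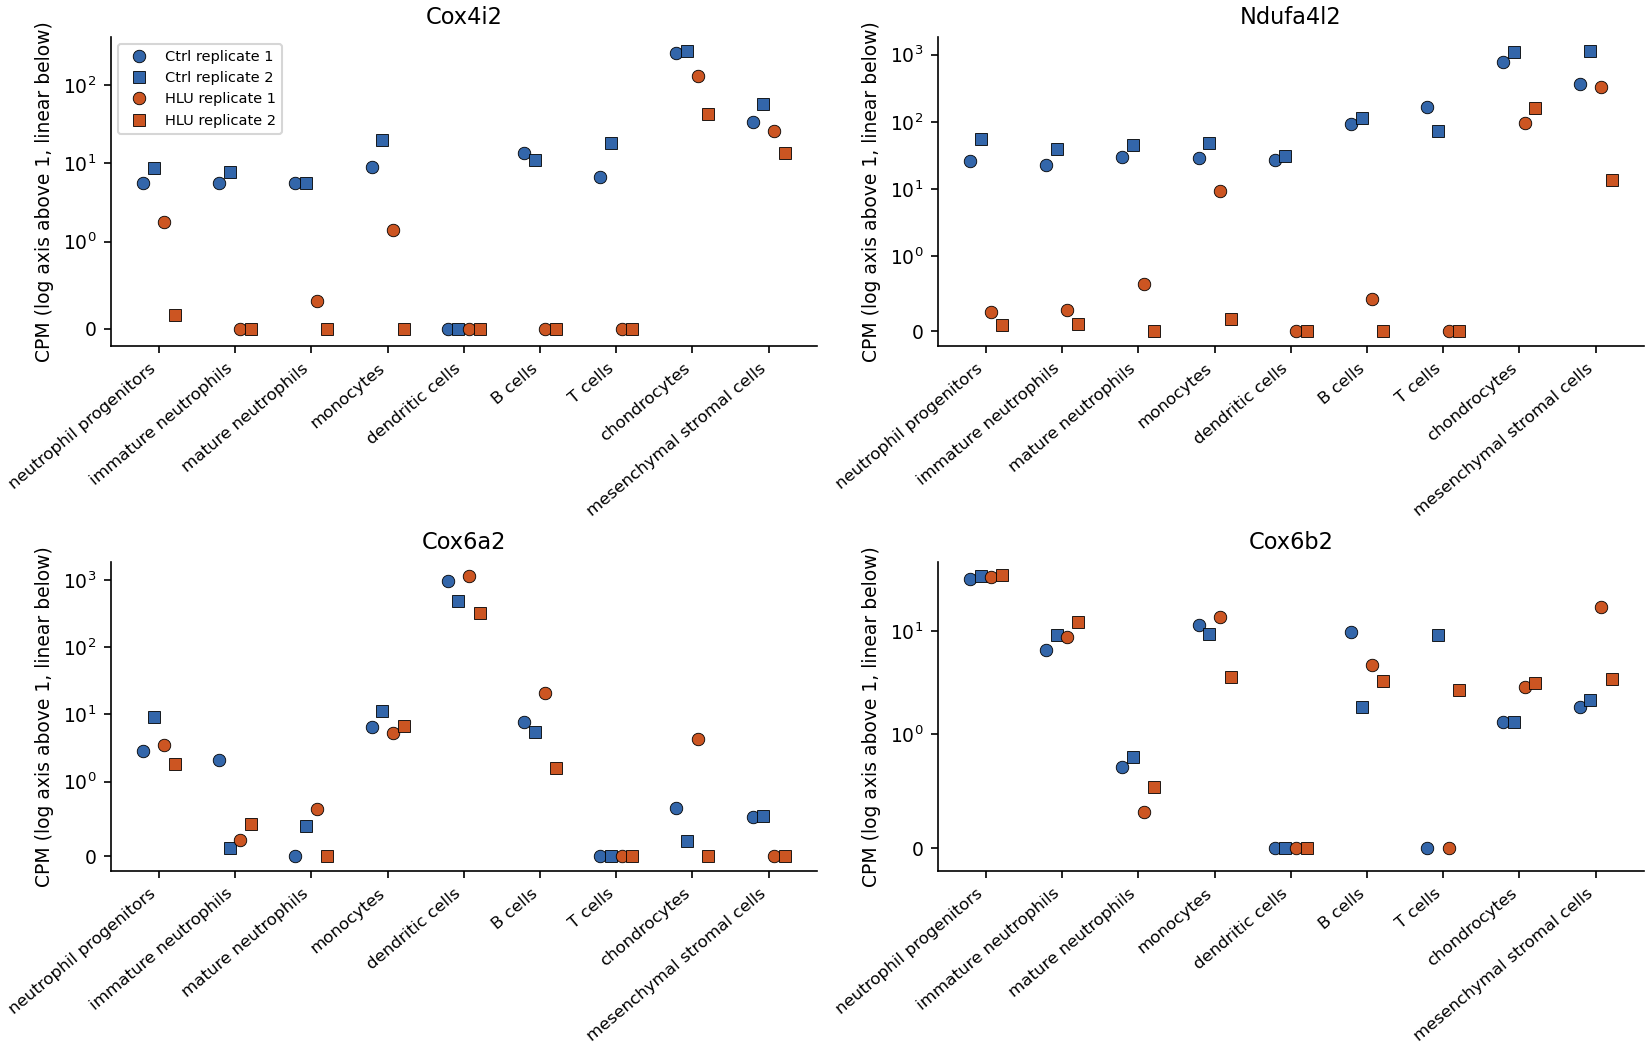
Level in CPM (y axis, logarithmic above 1 and linear below) of Cox4i2, Ndufa4l2, Cox6a2 and Cox6b2 in 9 cell types (x axis), 1 point a library (blue Ctrl, orange HLU, circles replicate 1, squares replicate 2). Cox6a2 reaches 324 to 1169 CPM in dendritic cells, Cox6b2 steps down along the neutrophil series, and Cox4i2 and Ndufa4l2 lie at or near 0 in most HLU blood cells.

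Hindlimb unloading was compared with Ctrl within each type, which asks whether respiratory transcripts change when bone is relieved of load. No nuclear member rose in any of the 6 types by edgeR, and the calls that were made were falls of Ndufa4l2 and Cox4i2 alone. Where called, these genes held 0 to 4 UMIs in each HLU library and passed the count filter through their Ctrl sums. In progenitors 1 of 89 fell (0.359% of all genes fell), in immature neutrophils 2 of 88 (3.28%), in mature neutrophils 1 of 82 (1.15%), in B cells 1 of 83 (1.28%, with 0.0397% higher and 1.32% in either direction), and in monocytes and skeletal cells 0 of 88 (0% of all genes in either). At an unadjusted p under 0.05, the nuclear members that were higher numbered 1 in mature neutrophils, 3 in skeletal cells and 0 in the other 4 types, and those that were lower numbered 3 in progenitors, 2 each in immature neutrophils, mature neutrophils and monocytes, 1 in B cells and 5 in skeletal cells. Of all genes 5.54% passed that threshold in progenitors, 11.4% in immature and 7.78% in mature neutrophils, 3.37% in monocytes, 4.61% in B cells and 19.1% in skeletal cells. The members' counts of both directions were at or below these shares in each type. DESeq2 called 1 nuclear member in monocytes and 3 in skeletal cells, counts given without the share of all genes that it called. The median log2 fold change of the nuclear members was -0.24 in progenitors, -0.07 in immature neutrophils, 0.34 in mature neutrophils, 0.03 in monocytes, -0.02 in B cells and -0.01 in skeletal cells, against medians of all genes from -0.01 to 0.07. In progenitors 71 of 89 were below 0, and in mature neutrophils 63 of 82 were above 0, without a call apart from Ndufa4l2. The TMM factors were 0.884, 0.957, 1.02 and 1.16 in progenitors and 1.06, 1.05, 1.09 and 0.820 in mature neutrophils. Fits with total UMIs in place of TMM were also run, but the medians of those fits are not given here. The part of the factors in the medians above is therefore not shown. Of Ndufs1, Sdhb, Uqcrc1, Cox5a and Atp5b none passed in any type (smallest edgeR adjusted p = 0.412, for Ndufs1 in skeletal cells).

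Ndufa4l2 was lower in both HLU libraries than in both Ctrl libraries in each of the 6 types. It held 26.2, 56.5, 0.253 and 0.0792 CPM in progenitors (-8.39 ± 0.72, edgeR adjusted p = 0.0168), 23.2, 39.4, 0.289 and 0.0919 CPM in immature neutrophils (-7.57 ± 0.60, edgeR adjusted p = 0.00442) and 29.9, 45.6, 0.635 and 0 CPM in mature neutrophils (-6.93 ± 0.84, edgeR adjusted p = 0.0214). B cells held 93.7, 114, 0.427 and 0 CPM (-8.01 ± 0.59, edgeR adjusted p = 0.000794). UMIs summed over a group stood at 178 against 2 in progenitors, 516 against 7 in immature neutrophils, 156 against 2 in mature neutrophils and 172 against 1 in B cells. Those summed UMIs were divided by all UMIs of the same cells summed over the group, and Ctrl was set over HLU. The ratio, with its exact 95% counting interval, was 216 (104 to 540.1) in immature neutrophils and 378 (103 to 3143) in progenitors. It was 176 (47.8 to 1463) in mature neutrophils, 317 (56.2 to 12604) in B cells and 11.8 (8.05 to 17.7) in monocytes. Monocytes, with 29.2, 48.1, 9.26 and 0.161 CPM, did not pass (-3.21 ± 1.23, edgeR adjusted p = 0.902), nor did skeletal cells, with 694, 1091, 139 and 124 CPM (-3.11 ± 0.35, edgeR adjusted p = 0.0653).

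Cox4i2 held 5.68, 7.85, 0 and 0 CPM in immature neutrophils, from 38 and 72 UMIs in Ctrl and none in HLU. With 3 UMIs over the HLU group as the floor, Ctrl was at least 107-fold higher, and the call (edgeR adjusted p = 0.00895) was lost when putative doublets were removed. Monocytes (8.92, 19.9, 1.40 and 0 CPM) and skeletal cells (208, 229, 93.3 and 34.3 CPM) did not pass (edgeR adjusted p = 0.740 and 0.113).

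Transcripts of cartilage moved with these calls. Barcodes under 1000 UMIs, which can hold free RNA, had 372, 474, 4.33 and 0 CPM of Ndufa4l2 and 108, 72.5, 0.722 and 0 CPM of Cox4i2. A fixed list of 14 cartilage and mesenchymal transcripts took 4.38%, 3.61%, 0.0939% and 0.156% of UMIs in those barcodes, 0.330%, 0.304%, 0.00286% and 0.00444% in immature neutrophils and 0.482%, 0.841%, 0.00192% and 0.00341% in B cells. Of that list 5 of 14 fell in HLU in progenitors, 10 of 14 in immature and 11 of 14 in mature neutrophils, 12 of 12 in B cells and 0 of 14 in monocytes, where no gene of any kind passed and the median log2 fold change of the list was -6.94, beside -6.70 in progenitors and -6.97 in immature neutrophils. In skeletal cells the list took 9.74%, 9.64%, 2.79% and 3.72%, beside neutrophil transcripts at 0.302%, 0.398%, 2.27% and 1.82%. The part of these transcripts in the lower Ndufa4l2 and Cox4i2 was not tested.

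No mitochondrial member passed in any type between HLU and Ctrl by edgeR, where 13 were tested in 5 types and 12 in mature neutrophils. At an unadjusted p under 0.05, 1 of 13 was lower in progenitors (5.54% of all genes passed in either direction), 3 of 13 in skeletal cells (19.1%) and 0 in the other types, and DESeq2 called 0. The mean mitochondrial share was 4.08% ± 0.0544 in Ctrl and 3.21% ± 1.52 in HLU progenitors (SD, n = 2 each), 4.79% ± 0.332 and 3.82% ± 1.56 in B cells, and 2.94% ± 0.0869 and 2.58% ± 0.776 in monocytes. The wide HLU spread came from HLU replicate 2, whose share was 0.515 times the mean of the other 3 libraries in progenitors, 0.611 in immature and 0.527 in mature neutrophils, 0.677 in monocytes, 0.562 in B cells, 0.563 in skeletal cells and 0.782 in T cells. Its nuclear share was 0.927 to 1.16 times that mean over the same types. An exact permutation test of 2 against 2 libraries cannot give a p below 1 in 3, and none was run on these shares. Without HLU replicate 2 the mitochondrial difference of HLU from Ctrl was 0.21 percentage points in progenitors, 0.13 in B cells, 0.19 in monocytes, 0.19 in skeletal cells and 0.03 in immature neutrophils, against -0.86, -0.97, -0.36, -0.51 and -0.27 with it. In mature neutrophils it was -0.22 with that library and -0.10 without it, as HLU replicate 1 at 0.577% also lay below both Ctrl libraries.

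The lower mitochondrial share of HLU replicate 2 was uneven over the 13 members. In B cells mt-Co1 held 8411, 6955, 8515 and 2948 CPM, mt-Co3 8111, 9414, 8791 and 4133 CPM and mt-Cytb 5226, 6449, 6515 and 2987 CPM. mt-Nd3 held 886, 1152, 1006 and 397 CPM. Each of these was lowest in HLU replicate 2, but mt-Nd4l with 207, 322, 268 and 512 CPM, mt-Nd5 with 377, 463, 402 and 699 CPM and mt-Atp8 with 125, 163, 115 and 216 CPM were highest there. In immature neutrophils mt-Nd1 was at 282, 282, 225 and 273 CPM, inside the range of the other libraries, beside mt-Co1 at 4863, 4255, 6227 and 1900.1 CPM. Ribosomal protein transcripts were lowest in HLU replicate 2 too in progenitors (32.0%, 29.0%, 28.2% and 23.8%), and the relation of these values to the mitochondrial share was not tested.

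**Figure D4:**
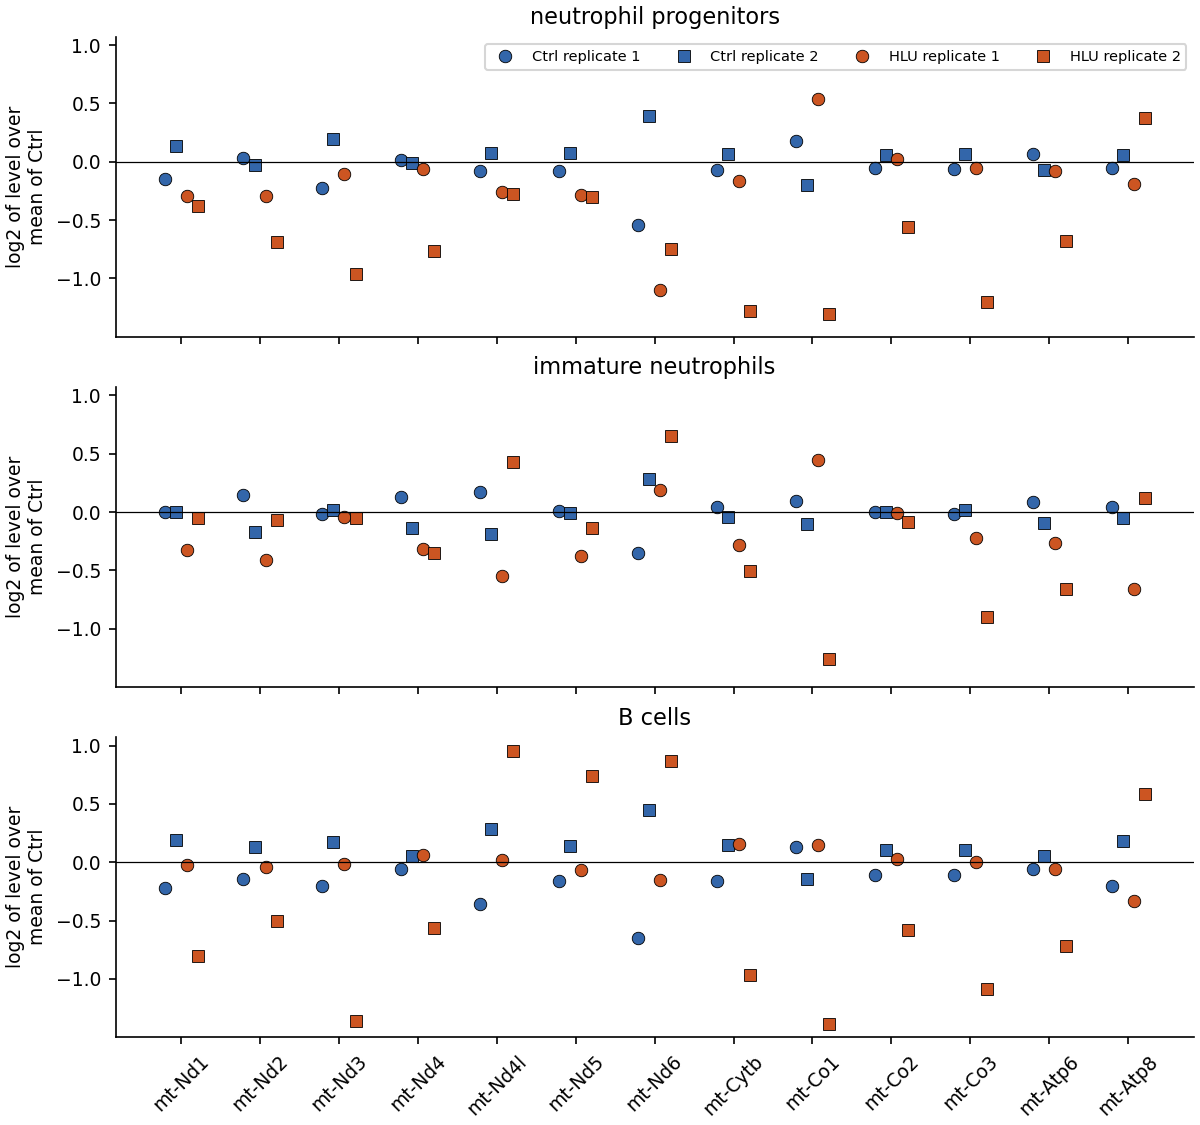
Log2 of the level of each mitochondrial member over the mean of the Ctrl libraries (y axis) in neutrophil progenitors, immature neutrophils and B cells, 1 point a library (blue Ctrl, orange HLU, circles replicate 1, squares replicate 2). HLU replicate 2 lies lowest for mt-Co1, mt-Co3 and mt-Cytb in all 3 types and highest for mt-Nd4l, mt-Nd5 and mt-Atp8 in B cells.

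The HLU libraries also parted in the tests, where counts without HLU replicate 2 stand without the share of all genes called. Without HLU replicate 1, which leaves HLU replicate 2 alone in its group and assumes that it varies like the Ctrl libraries, edgeR called 24 of 89 nuclear members in progenitors (33.4% of all genes), 18 of 89 in immature neutrophils (37% of all genes), 39 of 81 in mature neutrophils (33.7% of all genes) and 28 of 88 in monocytes (34.5% of all genes). It called 11 of 13 mitochondrial members in progenitors and 8 of 13 in B cells (5.95% of all genes). Without HLU replicate 2 the nuclear counts were 1, 2, 2 and 2 in the same 4 types. Members high in HLU replicate 2 included Atp5g1, with 265, 226, 224 and 493 CPM in B cells and 168, 212, 142 and 525 CPM in monocytes, where the group difference of 0.77 ± 0.63 did not pass (edgeR adjusted p = 0.902).

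The HLU effect was compared between monocytes and mature neutrophils by an interaction term, with 0 of 88 nuclear and 0 of 13 mitochondrial members called by edgeR (0.0099% of all genes) and 0 by DESeq2. At an unadjusted p under 0.05, 2 nuclear members were higher and 2 lower of 88, and no mitochondrial member, where 4.84% of all genes passed. Ndufaf4, chosen after its values were seen, differed between the types by 2.08 ± 0.64 (edgeR adjusted p = 0.853), from 16.2, 21.9, 21 and 58.4 CPM in monocytes and 3.56, 3.60, 1.27 and 1.42 CPM in mature neutrophils. The nuclear median of the interaction was -0.37 and the median of all genes -0.14.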

How the data were processed

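The authors deposited raw UMI counts per gene and barcode of 4 droplet libraries (3′ chemistry). Cell Ranger 6.0.0, Seurat 4.1.0 and genome build mm10 are credited to the submitters' processing notes. From these counts, cells were kept and gated by marker genes (at least 3 markers above the level of barcodes under 1000 UMIs of the same library, at a Poisson p under 0.01, and the largest share of markers of any type), with the gate thresholds set after cells were seen, and doublets scored but removed only as an alternative. UMIs were summed per library and type, with at least 20 cells in every library between groups and at least 10 between types, and tested with edgeR 4.0.16 (glmQLFTest, TMM, filterByExpr, Benjamini-Hochberg), between types with library as a term. The study's own comparison was made over cells, whereas here libraries are the replicates. Alternatives covered DESeq2 1.42.0, scaling, filters, gates, the replicate block and each library left out. The set of members, fixed by symbol, the lists and the tests were chosen with earlier results of these data known. Named were the mitochondrial members, complex IV and ATP synthase paralogues, 1 core subunit a complex, and up to 5 called rises and 5 called falls a comparison. The fits were tested on simulated data in which 200 genes changed by 2 on the log2 scale. For HLU against Ctrl 97 of them were recovered in monocytes and 102 in mature neutrophils. Between mature and immature neutrophils 183 were recovered. Intervals cover counting error only. Promoter windows and gene starts come from RefSeq (GRCm38.p6), and positions from GENCODE M21.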

Additional observations from a re-analysis of the deposited data

Results flagged for a closer look

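In neutrophil progenitors the nuclear members took a smaller share of UMIs in both HLU libraries than in both Ctrl libraries, with an HLU minus Ctrl difference of -0.169 percentage points (2.37% ± 0.0375 against 2.54% ± 0.0296, SD, n = 2 each). In skeletal cells the same share was larger in both HLU libraries than in both Ctrl libraries, by 0.150 percentage points (1.43% ± 0.0014 against 1.28% ± 0.0278). Among the classes joined there, chondrocytes parted, with 1.24% and 1.21% in Ctrl against 1.37% and 1.44% in HLU, while mesenchymal stromal cells (1.52% and 1.46% against 1.44% and 1.47%) and osteoblasts (1.44% and 1.29% against 1.78% and 1.32%) overlapped. The HLU minus Ctrl difference thus had opposite signs in progenitors and in skeletal cells as a class. The difference between these types was not tested. They were picked because their groups lay apart. In immature neutrophils, mature neutrophils, monocytes and B cells the nuclear shares of the groups overlapped. With n = 2 each, groups often lie apart by chance, so the signs are not read as an effect of unloading. Skeletal cells numbered 70 and 128 in HLU, and their share of neutrophil transcripts was 2.27% and 1.82% against 0.302% and 0.398% in Ctrl, whose part in the difference was not tested.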

How the results depend on the processing

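Leaving out 1 library at a time changed the group comparisons. Apart from the shares given above for the fits without HLU replicate 1, the share of all genes called is not given. The ranges therefore describe only how calls moved. The counts of called members ranged, for HLU against Ctrl, from 1 to 24 nuclear and 0 to 11 mitochondrial in progenitors, 2 to 18 and 0 to 3 in immature neutrophils, 1 to 39 and 0 to 4 in mature neutrophils, 0 to 28 and 0 to 4 in monocytes, 1 to 2 and 0 to 8 in B cells, and 0 to 3 and 0 to 3 in skeletal cells, the highest each time without HLU replicate 1. They ranged from 6 to 31 nuclear and 6 to 12 mitochondrial for B cells against monocytes, 24 to 50 and 2 to 6 for skeletal cells against monocytes, and 0 to 16 and 0 to 1 for the interaction. The neutrophil steps and monocytes against mature neutrophils kept 45 to 67, 66 to 77 and 56 to 68 nuclear members.

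Processing moved small counts for HLU against Ctrl. The shares of all genes called under these alternatives are not given, so the counts describe only how calls moved. With no filter on low counts 2 nuclear members were called in each of progenitors, mature neutrophils, monocytes and B cells. With at least 10 UMIs in every sum 0 were called in progenitors, immature neutrophils, mature neutrophils and B cells and 1 in skeletal cells. In those blood cell types no HLU sum of Ndufa4l2 or Cox4i2 reached 10 UMIs. That filter therefore left both genes untested there, and the counts of 0 follow from it. Removing putative doublets left 1 in immature neutrophils, DESeq2 gave 1 in monocytes and 3 in skeletal cells, and total UMIs gave 1 in skeletal cells. Without the library term 37 nuclear members were called between progenitors and immature neutrophils (1 higher, 36 lower) and 7 nuclear and 7 mitochondrial between B cells and monocytes, where cells of up to 5% mitochondrial UMIs gave 13 nuclear. The cause of the other moves was not tested. In monocytes against mature neutrophils Atp5l turned to 0.072 with at least 10 UMIs in every sum and 0.39 with total UMIs, and Sdhd to 0.13 with total UMIs.

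Replicate numbers are shared between the groups in the labels. Deviations of same-numbered libraries correlated by 0.147 in progenitors, 0.0264 and -0.0632 in immature and mature neutrophils, 0.0552 in monocytes, 0.0406 in B cells and -0.0404 in skeletal cells. Whether same-numbered libraries were handled together is not in the labels and was not tested. With the replicate block 2 nuclear members were called in mature neutrophils and 1 in skeletal cells, and the other counts stayed within 1.5 times.

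The nuclear share of HLU minus Ctrl was -0.17 percentage points in progenitors, -0.70 with mitochondrial, ribosomal protein and neutrophil granule transcripts left out of the total and -0.13 with cells of up to 5% mitochondrial UMIs, an alternative chosen after seeing the data, as was leaving out each library from the shares. With that total it was -0.0645 in place of 0.0847 in B cells and 0.21 in place of 0.15 in skeletal cells. Of the named gene results, 90 alternatives without a library and 86 of processing lost a call in the same direction, and 468 and 1562 kept their side of the threshold. With 2 mice a group, a member without a call may still differ.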

Other observations

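Cell types too small for the test across genes gave levels only. Osteoclasts, of 6 and 11 cells in Ctrl and 4 and 3 in HLU, held in that order 1.99%, 3.31%, 3.43% and 3.51% nuclear and 5.74%, 4.87%, 6.85% and 3.11% mitochondrial member UMIs. In Ctrl replicate 2 the mitochondrial share of the median osteoclast was 1.80%, with quartiles of 0.839% and 5.92%. In dendritic cells the nuclear members took 2.30%, 2.13%, 2.35% and 2.47% and the mitochondrial members 3.41%, 3.36%, 3.82% and 3.94%, so that HLU replicate 2, with 3 cells, was not low there. Erythroid cells, of 9, 11, 51 and 344 cells, held 0.722%, 1.49%, 0.652% and 0.302% nuclear and 0.533%, 0.861%, 0.465% and 0.288% mitochondrial member UMIs when summed. The median erythroid cell held 0.148%, 0.144%, 0.230% and 0.213% nuclear and 0.0792%, 0.151%, 0.109% and 0.240% mitochondrial member UMIs. For the nuclear members the summed share was higher in both Ctrl libraries and the median share in both HLU libraries. The cells without a type name, 3963, 3569, 3883 and 3512 in number, held 1.38%, 1.33%, 1.34% and 1.59% nuclear member UMIs.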
